A study of Sus scrofa with 8 samples.

Results

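Endoderm transcription factors and markers were examined in porcine induced pluripotent stem cells (piPSCs) that overexpress IRF-1. The 8 genes are GATA4, GATA6, SOX17, FOXA2, HNF4A, APOA1, APOE and CITED1. Rows of the deposited count table were taken where pig Ensembl gene names give one of these symbols to the row's gene identifier, and 7 of the 8 were found among 24358 genes. SOX17 had no identifier under its symbol. An unnamed gene at its locus is therefore given beside the members, outside this rule.

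The study asked how overexpressed IRF-1 bears on pluripotency. RNA-seq was done on oligo(dT) cDNA of 4 libraries, 2 of IRF-1 overexpressing cells (replicates 1 and 3) and 2 of control cells (replicates 6 and 8). The study describes both groups as DOX-hLIF-2i piPSCs, and the labels give domestic pig. In the methods, these lines came from embryonic fibroblasts with an OCT4-tdTomato reporter and with doxycycline-inducible OCT4, SOX2, KLF4 and c-MYC, and were grown with doxycycline, human and porcine LIF, CHIR99021 and PD0325901. The overexpressing cells received PB-CAG-IRF1-Flag, in which the CAG promoter drives IRF1, with the transposase plasmid, the control cells received PB-CAG-Flag, and puromycin selected the transfected cells. The sample labels instead name PC-iPS cells in an LCDMV medium, with feeder cells removed by a short plating step, so the line and medium of these libraries are uncertain. The genotype label is overexpression of IRF-1 for all 4 libraries, so the groups follow the study's own assignment of the 4 libraries. No label says that replicates came from separate cultures, so p-values measure only the spread between these samples, which may be technical.

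GATA4, GATA6, SOX17, FOXA2 and HNF4A encode transcription factors of endoderm. In the mammalian embryo GATA6 is among the earliest factors of primitive endoderm, GATA4 and SOX17 act after it, FOXA2 serves both visceral and definitive endoderm, and HNF4A switches on genes of visceral endoderm and liver. APOA1 and APOE encode lipoprotein components that visceral endoderm and liver secrete, and CITED1 encodes a transcriptional co-activator.

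The reads counted on genes numbered 24923319 and 20858333 in overexpressing replicates 1 and 3, and 15925429 and 17097669 in control replicates 6 and 8. Levels are in CPM, counts per 1000000 counted reads, with library sizes scaled by TMM factors, and a count of 3, taken as the floor of detection, was worth between 0.121 and 0.192 CPM. IRF1 (ENSSSCG00000014277) was looked at first as a test of the labels, with 8206 and 5485 counts in overexpressing replicates 1 and 3 against 55 and 56 counts in control replicates 6 and 8. Both overexpressing libraries lay far above both controls, as the group names say.

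Genes were tested with edgeR, and a gene is called when its Benjamini-Hochberg adjusted p is under 0.05 and its log2 ratio, the fitted log2 of the overexpressing over the control level, is at least 1 in size. SE is the standard error of that ratio. Of the 7 members found, 4 had enough counts to be tested and 3 did not. Called higher was 1 of the 4 (CITED1), where 8.61% of all 13250 tested genes were called higher. Called lower were 2 (APOA1 and APOE), where 10.6% of all tested genes were called lower. Called in either direction were 3 of 4, against 19.3% of all tested genes. The remaining tested member, GATA6, was not called. The members were chosen with earlier results of these data known, so nothing is read from these shares.

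**Figure D1:**
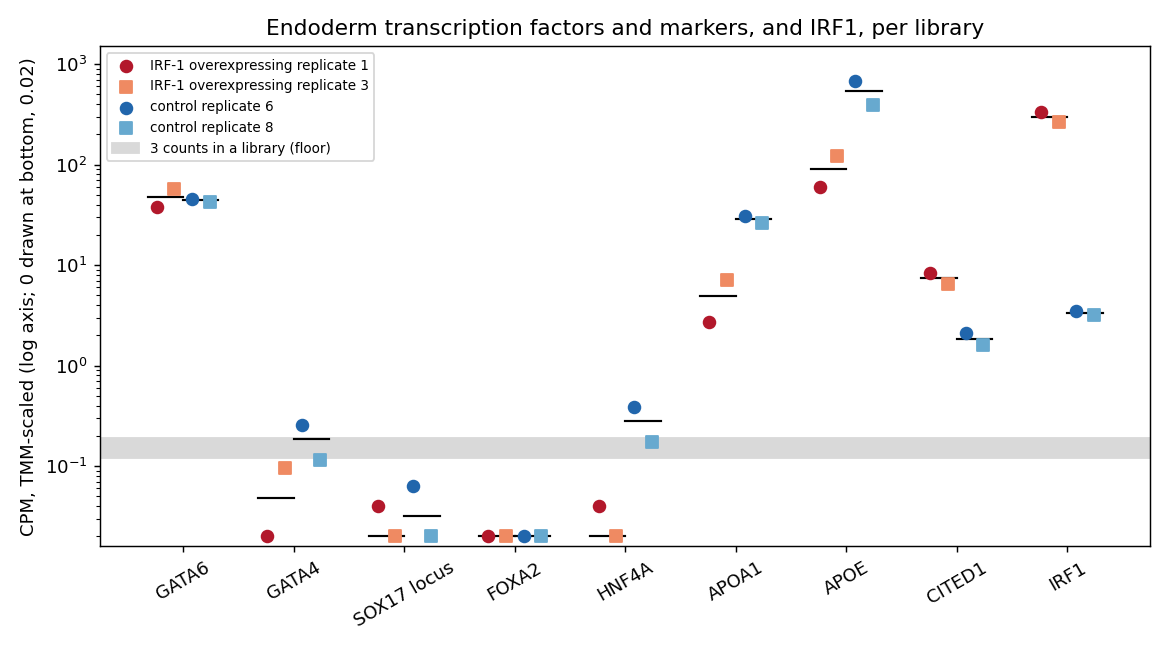
Level of each member and of IRF1 in the 4 libraries, in TMM-scaled CPM on a log axis. Points are libraries, black bars are group means, the grey band is the level of 3 counts, and libraries with 0 counts are drawn at the bottom of the axis. APOA1 and APOE lie lower and CITED1 lies higher in both overexpressing libraries than in both controls, GATA6 overlaps between groups, and GATA4, FOXA2, HNF4A and the SOX17 locus lie near or under the band.

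GATA6 (ENSSSCG00000003702) was the only one of the 5 endoderm transcription factors that was counted well above the floor. The gene spans 107282849 to 107314644 on the plus strand of chromosome 6 of Sscrofa11.1. Its level was 37.8 CPM (940 counts) in overexpressing replicate 1 and 57.7 CPM (1201 counts) in overexpressing replicate 3, beside 45.3 CPM (708 counts) and 42.7 CPM (747 counts) in control replicates 6 and 8. The controls lay between the overexpressing libraries, so the groups overlapped. Overexpressing cells had a mean of 47.8 ± 14.1 CPM and control cells one of 44.0 ± 1.84 CPM (SD, n = 2 each). The log2 ratio was 0.12 (SE 0.21, 95% interval -0.38 to 0.61, edgeR adjusted p = 0.715). The interval leaves out a change as large as the limit of 1 in either direction. The sign of this small difference rested on single libraries, since leaving out overexpressing replicate 1 gave a log2 ratio of 0.40 and leaving out overexpressing replicate 3 gave -0.22.

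GATA4 (ENSSSCG00000022383), a GATA factor of endoderm and heart, spans 14858159 to 14937207 on the plus strand of chromosome 14. It had 0 and 2 counts in overexpressing replicates 1 and 3, and 4 and 2 counts in control replicates 6 and 8. Only control replicate 6 passed the floor. Over summed counts, the control level was 4.14 times the overexpressing level, with an exact 95% counting interval of 0.739 to 41.9, which includes equal levels. A difference in GATA4 was thus not detectable at this depth. Counting intervals and floors here cover counting error only.

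HNF4A (ENSSSCG00000007371), a nuclear receptor that controls apolipoprotein genes in liver, spans 46783777 to 46847500 on the plus strand of chromosome 17. It had 1 and 0 counts in overexpressing replicates 1 and 3, and 6 and 3 counts in control replicates 6 and 8. The overexpressing group was at the floor, and control replicate 6 alone was above it. Summed counts gave a control level 12.4 times the overexpressing level, with an exact 95% counting interval of 1.72 to 544. When the filter on low counts was dropped so that HNF4A entered the fit, its log2 ratio was -3.31 (SE 1.73) and the adjusted p was 0.169 in edgeR, so it was not called.

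FOXA2 (ENSSSCG00000007114), a forkhead pioneer factor of endoderm, spans 29996344 to 30001707 on the minus strand of chromosome 17. It had 0 counts in each of the 4 libraries. A count of 0 allows levels of up to 0.121 and 0.144 CPM in overexpressing replicates 1 and 3, and of up to 0.192 and 0.172 CPM in control replicates 6 and 8. No fold change can be given for FOXA2, since both groups are at the floor.

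SOX17 encodes an HMG-box factor of primitive and definitive endoderm. RefSeq places it on chromosome 4 of Sscrofa11.1 from 76854218 to 76857143, and the unnamed gene ENSSSCG00000006256 of the count table (76855151 to 76857176, minus strand) shares 1993 bases of span with it. This gene had 1 and 0 counts in overexpressing replicates 1 and 3, and 1 and 0 counts in control replicates 6 and 8. Every library was under the floor, and no fold change is given.

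APOE (ENSSSCG00000003088), a ligand of lipoprotein receptors made by visceral endoderm, liver, macrophages and many other cells, spans 51372241 to 51375617 on the plus strand of chromosome 6. Its level was 60.4 CPM (1500 counts) and 121 CPM (2523 counts) in overexpressing replicates 1 and 3, against 683 CPM (10675 counts) and 391 CPM (6843 counts) in control replicates 6 and 8. Both overexpressing libraries were below both controls, and within each group the libraries also lay apart. The level in overexpressing replicate 3 was 2.01 times that in replicate 1, and control replicate 6 was 1.75 times control replicate 8.

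Mean APOE fell from 537 ± 206 CPM in controls to 90.8 ± 43.1 CPM with IRF-1 overexpression (SD, n = 2 each). The log2 ratio was -2.57 (SE 0.37, 95% interval -3.42 to -1.71, edgeR adjusted p = 0.00231), a 5.92-fold difference. Without overexpressing replicate 3 it was -3.15, and without control replicate 6 it was -2.11, and APOE stayed called in each case. In bulk RNA, fewer cells that express a gene and less of its RNA per cell cannot be told apart.

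APOA1 (ENSSSCG00000030921), the main protein of high-density lipoprotein and a target of HNF4A in liver, spans 44214596 to 44218978 on the minus strand of chromosome 9. It was counted at 2.70 CPM (67 counts) and 7.11 CPM (148 counts) in overexpressing replicates 1 and 3, against 30.8 CPM (482 counts) and 26.3 CPM (460 counts) in control replicates 6 and 8. The groups did not overlap, and the controls lay close together while overexpressing replicate 3 was 2.64 times replicate 1. The mean fell from 28.6 ± 3.22 CPM (SD, n = 2) to 4.91 ± 3.12 CPM (SD, n = 2). The log2 ratio was -2.55 (SE 0.41, 95% interval -3.50 to -1.603, edgeR adjusted p = 0.00352). On the log2 scale it fell by 3.40 without overexpressing replicate 3 and fell by 2.00 without overexpressing replicate 1, and APOA1 stayed called in both cases.

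CITED1 (ENSSSCG00000012409), which binds CBP/p300 and helps SMAD4 and TFAP2 proteins to activate genes, was the member that moved the other way. It spans 58177291 to 58185299 on the minus strand of chromosome X. Its level was 8.29 CPM (206 counts) and 6.54 CPM (136 counts) in overexpressing replicates 1 and 3, against 2.11 CPM (33 counts) and 1.6 CPM (28 counts) in control replicates 6 and 8. Each overexpressing library lay above each control. The mean rose from 1.86 ± 0.361 CPM (SD, n = 2) to 7.41 ± 1.24 CPM (SD, n = 2). This is a log2 ratio of 2.00 (SE 0.35, 95% interval 1.19 to 2.81, edgeR adjusted p = 0.00496), and leaving out any single library gave values from 1.82 to 2.21.

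To compare the members with each other, levels were divided by the exon length in the count table and are given as FPKM, which is CPM per kilobase of exon. In the control cells APOE stood at 371 ± 142 FPKM (SD, n = 2), rank 115 of all genes in the table. GATA6 followed at 12.5 ± 0.525 FPKM, APOA1 at 9.22 ± 1.04 FPKM and CITED1 at 0.264 ± 0.0515 FPKM (SD, n = 2 each). Each step in this order was larger than the spread between the control libraries, as APOA1 had 9.96 and 8.49 FPKM and GATA6 had 12.9 and 12.2 FPKM. HNF4A and GATA4 lay at or under 0.0795 FPKM in each control library, and their order cannot be told from so few counts.

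The overexpressing cells kept the same order of means, with APOE at 62.6 ± 29.7 FPKM, GATA6 at 13.6 ± 4.01 FPKM, APOA1 at 1.58 ± 1.01 FPKM and CITED1 at 1.06 ± 0.177 FPKM (SD, n = 2 each). APOA1 and CITED1 now overlapped, since APOA1 had 0.87 and 2.30 FPKM in replicates 1 and 3 and CITED1 had 1.18 and 0.931 FPKM. APOE stood at rank 844 of all genes in these cells. The exon length joins the exons of all transcript models. For CITED1 its 7025 bases fill 87.7% of the gene's span, and for APOA1 its 3098 bases fill 70.7%. A level per length is therefore too low where the transcript in these cells is shorter. The order of the members by FPKM, as of GATA6 over APOA1, may depend on this. The comparison between groups is not touched by length.

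Overexpressing replicate 3 lay nearer the controls than replicate 1 did for APOE, APOA1 and CITED1. The same held for 1076 of the 1410 genes called lower (76.3%) and for 936 of the 1141 genes called higher (82.0%). IRF1 itself was counted at 330 CPM in replicate 1 and at 264 CPM in replicate 3. Whether the dose of IRF1 has a part in this difference between replicates was not tested. Mitochondrial genes took 8.62% and 7.57% of the counts in overexpressing replicates 1 and 3 and 6.29% and 6.68% in control replicates 6 and 8, and with these genes left out of the fit the log2 ratio was -2.56 for APOE, -2.55 for APOA1 and 2.00 for CITED1, each still called.

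Other genes within 50 kb of the tested members were looked at after the members' values had been seen. No member shares exon bases with another gene of the table. The unnamed gene ENSSSCG00000035292 on the opposite strand spans the whole of APOE and had between 6 and 14 counts in a library, which is small beside the counts of APOE. Of 7 neighbours of APOE, 4 were tested and 1 was called lower, the unnamed ENSSSCG00000003090 at the RefSeq locus of the adhesion gene NECTIN2, with a log2 ratio of -1.69 (SE 0.25, edgeR adjusted p = 0.00254). TOMM40, which ends 2331 bases before APOE, had a log2 ratio of 0.15 (SE 0.14) and was not called.

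Around APOA1, the apolipoprotein genes APOC3 and APOA4 had 0 counts in each library. The neighbours SIK3 and BUD13 had log2 ratios of 0.09 and -0.09, and neither was called. Around CITED1, RPS4X and HDAC8 had log2 ratios of 0.20 and -0.13 and were not called either. So no tested neighbour of APOA1 or CITED1 was called. The neighbour of GATA6, the unnamed ENSSSCG00000039279 at a distance of 639 bases, had 0 and 5 counts in overexpressing replicates 1 and 3 and 2 and 3 counts in control replicates 6 and 8, too few to be tested.

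For each tested member, the named genes with the most similar pattern over the 4 libraries were found by the root mean square difference of centred log2 CPM. This is a description over 4 libraries only. APOE was closest to EFEMP2 (0.05 on the log2 scale) and PRSS23 (0.06), and APOA1 to FLRT1 (0.05) and CD9 (0.06). DMRT1 (0.07) was among the genes closest to CITED1, and GATA6 was closest to SPARCL1 (0.04) and AS3MT (0.06).

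Other genes of the members' pathways were taken from 7 lists. Of their 126 genes, 107 were found by symbol and 69 were tested. Of these, 11 (15.9%) were higher and 23 (33.3%) were lower, or 49.3% in either direction, beside 8.61% higher, 10.6% lower and 19.3% in either direction among all 13250 tested genes. Their median log2 ratio was -0.34, beside 0.00 over all tested genes. Without overexpressing replicate 1, fewer listed genes were called in each direction. Fewer of all tested genes were called too, so the shares above are not the background for that fit. The lists were written with earlier results known, so the shares are a description, and those over all tested genes are also the background for each single list. Exons of VLDLR, FOXH1, TFAP2B, WNT3, NID2 and COL1A1 have between 40 and 434 bases in common with an opposite-strand gene, and reads in these stretches could come from either, since no strand setting was given for the counting. The list medians differed in sign. The extraembryonic endoderm markers had the lowest median and the transcription factors the highest.

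**Figure D2:**
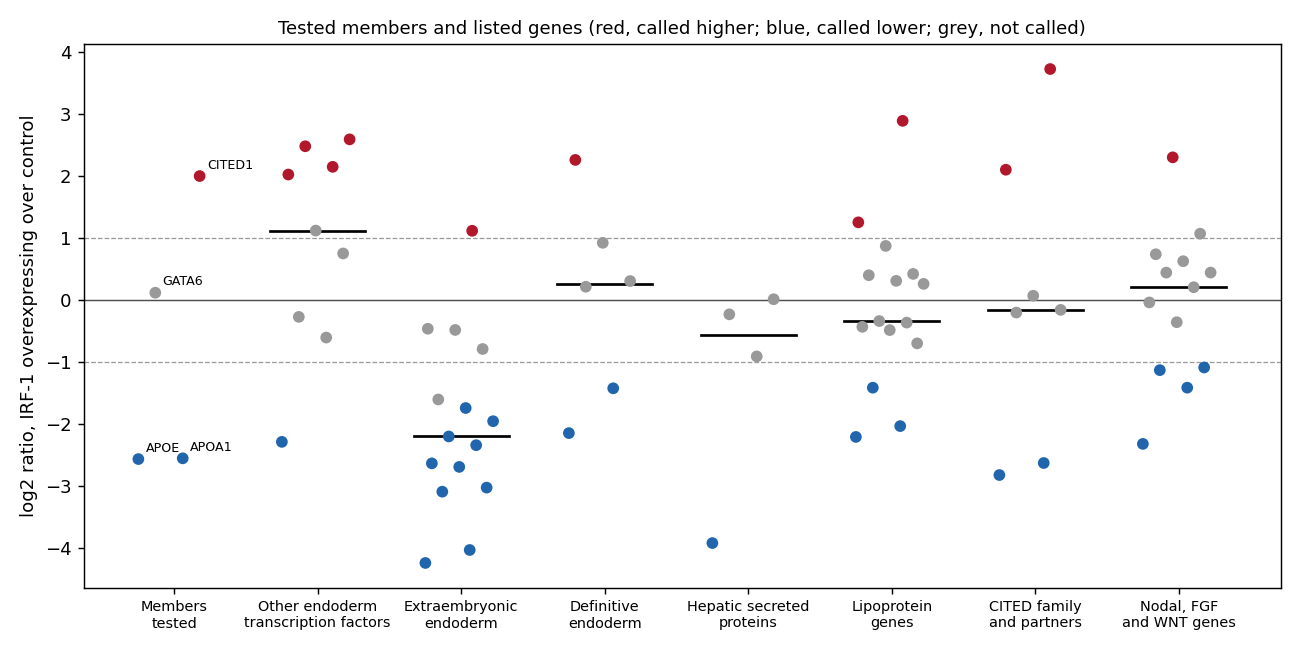
Log2 ratio of each tested member and of each tested gene in the 7 lists, overexpressing over control, with 1 point per gene. Red points were called higher, blue points were called lower and grey points were not called. Black bars are list medians and dashed lines mark the limits of -1 and 1. Extraembryonic endoderm markers lie mostly below -1 with a median of -2.20, and the other transcription factors have a median of 1.12. The lowest point among hepatic secreted proteins is F2, whose overexpressing libraries are at the floor, so its position is uncertain.

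Among paralogs and partners of the endoderm factors, 18 of 20 were found, 9 were tested, 4 were higher and 1 was lower. Without overexpressing replicate 1 the counts were 2 higher and 0 lower in edgeR, and the same in glmTreat with all 4 libraries. The median log2 ratio of 1.12 is that of HNF4G, which was itself not called (SE 0.54, edgeR adjusted p = 0.166). No tested paralog of GATA4, GATA6, FOXA2 or HNF4A was called. GATA5 had 0 counts in every library, and FOXA1 had 624 and 416 counts in overexpressing replicates 1 and 3 against 240 and 201 counts in control replicates 6 and 8, a log2 ratio of 0.75 (SE 0.23, edgeR adjusted p = 0.045) that did not reach the limit of 1. HHEX, a homeobox gene of anterior endoderm, had 165 and 92 counts in overexpressing replicates 1 and 3 against 19 and 11 counts in control replicates 6 and 8. Its log2 ratio was 2.59 (SE 0.46, edgeR adjusted p = 0.00544).

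NR5A2, a nuclear receptor of liver and early embryo, had 431 and 344 counts in overexpressing replicates 1 and 3 against 53 and 47 counts in control replicates 6 and 8, a log2 ratio of 2.48 (SE 0.27, edgeR adjusted p = 0.000811). For PRDM1 the log2 ratio was 2.15, for PROX1 2.02 and for the GATA cofactor ZFPM2 (FOG2) -2.29. All 3 lost their call without overexpressing replicate 1, with log2 ratios of 1.90, 1.38 and -1.94. The mesendoderm factors MIXL1, with 0 counts, and EOMES, with 1 count in each library, were at the floor throughout.

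Of 23 surface, matrix and secreted markers of primitive, visceral and parietal endoderm, 20 were found and 15 were tested. Of these, 10 were lower and 1 was higher, with a median log2 ratio of -2.20. The 4 not called were LAMA1 (log2 ratio -0.46), LAMC1 (-0.48), COL4A2 (-0.79) and PDGFRA (-1.60, edgeR adjusted p = 0.0507). The basement membrane gene HSPG2 had 830 and 1175 counts in overexpressing replicates 1 and 3 against 15187 and 12686 counts in control replicates 6 and 8. Its log2 ratio was -4.24 (SE 0.29, edgeR adjusted p = 0.000201), and both controls were far above both overexpressing libraries. PTH1R, the parathyroid hormone receptor of parietal endoderm, had 19 and 77 counts against 720 and 446 counts in the same order of libraries, a log2 ratio of -4.03 that was -5.54 without overexpressing replicate 3 and -3.26 without replicate 1.

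DAB2, an endocytic adaptor of visceral endoderm, had a log2 ratio of -3.09. Of its exon bases, 1682 also belong to C9, a gene of the same strand, so reads in these stretches may come from either. NID2 was the gene called higher, with a log2 ratio of 1.12, and it lost its call without overexpressing replicate 1, at 0.86. The visceral endoderm genes CER1 and IHH had 0 counts in every library.

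Definitive endoderm markers gave 6 tested genes of 10, all of which were found by symbol, with 1 higher, 2 lower and a median log2 ratio of 0.26. KIT had 315 and 184 counts in overexpressing replicates 1 and 3 against 27 and 48 counts in control replicates 6 and 8, a log2 ratio of 2.26 (SE 0.36, edgeR adjusted p = 0.00353). CXCR4, a chemokine receptor used with KIT to sort definitive endoderm, went the other way, with 437 and 430 counts against 764 and 939 counts and a log2 ratio of -1.42 (SE 0.17, edgeR adjusted p = 0.00114). These sorting markers thus moved in opposite directions, but CXCR4 was not called in glmTreat, where 0 genes of this list were lower. TMPRSS2 had a log2 ratio of -2.15 and lost its call without overexpressing replicate 1 (-1.68) or control replicate 6 (-1.46), and it was -2.76 without overexpressing replicate 3.

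Secreted proteins of visceral endoderm and liver were few in these cells. Of 18 genes, 13 were found and 4 were tested, with 0 higher and 1 lower in edgeR, and a median log2 ratio of -0.57. The hallmark genes TTR, AFP, TF and SERPINA1 had 0 counts in every library. ALB had 54 and 51 counts in overexpressing replicates 1 and 3 against 34 and 42 counts in control replicates 6 and 8, with a log2 ratio of 0.01 (SE 0.37). The prothrombin gene F2 had 3 and 3 counts against 32 and 37 counts, so that the control level was 15.9 times the overexpressing level with an exact 95% counting interval of 6.92 to 44.7. Of the 13 genes found, 5 passed 3 counts in any library.

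Among 31 other apolipoproteins and genes of lipoprotein assembly and uptake, 25 were found and 15 were tested, with 2 higher, 3 lower and a median log2 ratio of -0.34. MTTP, which loads lipid onto nascent lipoproteins, had 108 and 138 counts in overexpressing replicates 1 and 3 against 420 and 415 counts in control replicates 6 and 8. Both overexpressing libraries were below both controls. Its log2 ratio was -2.21 (SE 0.26, edgeR adjusted p = 0.00114). APOB, the protein that MTTP acts on, had 2 and 3 counts against 12 and 5 counts and was not tested. LIPG, an endothelial-type lipase of high-density lipoprotein, had a log2 ratio of -2.03.

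ABCA1, the exporter that hands cholesterol to APOA1, rose while APOA1 fell. It had 3961 and 1166 counts in overexpressing replicates 1 and 3 against 184 and 302 counts in control replicates 6 and 8, and the log2 ratio of 2.89 (SE 0.46, edgeR adjusted p = 0.00353) was 1.95 without overexpressing replicate 1. The APOE receptor gene VLDLR had a log2 ratio of 1.25, which was not called without overexpressing replicate 1 (1.03) or control replicate 8 (0.97).

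Of 8 CITED family genes and partners, 7 were found and tested, with 2 higher, 2 lower and a median log2 ratio of -0.16. CITED2, the paralog of CITED1, changed in the opposite direction to CITED1. It had 308 and 393 counts in overexpressing replicates 1 and 3 against 1793 and 1371 counts in control replicates 6 and 8, a log2 ratio of -2.63 (SE 0.26, edgeR adjusted p = 0.000655).

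The TFAP2 partners were split too. TFAP2A rose from 45 and 47 counts in control replicates 6 and 8 to 769 and 890 counts in overexpressing replicates 1 and 3, a log2 ratio of 3.72 (SE 0.26, edgeR adjusted p = 0.000206). TFAP2B had a log2 ratio of 2.10 and TFAP2C of -2.82. In glmTreat TFAP2B was not called, and 1 of the CITED family genes and partners was higher. The coactivator genes CREBBP and EP300 had log2 ratios of 0.07 and -0.16, SMAD4 had -0.20, and none of the 3 was called.

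Of 17 genes of the Nodal, FGF and WNT signals that specify endoderm, 15 were found and 13 were tested, with 1 higher, 4 lower and a median log2 ratio of 0.21. These counts depended on the method, with 2 higher in DESeq2, in limma-voom, with no filter on low counts, with no fold change minimum and without control replicate 8, and with 0 higher and 0 lower in glmTreat. Without overexpressing replicate 1 the number lower was 2, and without overexpressing replicate 3 the number higher was 0 in edgeR. ACVR1C, a type I receptor of Nodal, had 143 and 167 counts in overexpressing replicates 1 and 3 against 9 and 38 counts in control replicates 6 and 8. Its log2 ratio was 2.30, and leaving out control replicate 6 gave 1.66, control replicate 8 gave 3.57, and overexpressing replicate 3 gave 2.05, where the call was lost. The control libraries lay apart for ACVR1C, while the overexpressing libraries lay together. The ligand gene NODAL had 374 and 351 counts in overexpressing replicates 1 and 3 against 76 and 180 counts in control replicates 6 and 8. NODAL was not called, with a log2 ratio of 1.07 (SE 0.35, edgeR adjusted p = 0.054). WNT3 had a log2 ratio of -2.32, not called without overexpressing replicate 1 (-2.13), FGFR2 had -1.41, and the Nodal cofactor gene FOXH1 had -1.13, not called without control replicate 6 (-0.93).

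Markers of the cell types that these cultures could hold, and in which the members are also known to be expressed, were counted in the same libraries. Pluripotency markers were present, with summed levels of 1260 and 1302 CPM in overexpressing replicates 1 and 3 and of 1517 and 1675 CPM in control replicates 6 and 8, with DNMT3B the most abundant. Of 7 tested markers among 11 listed, 4 were lower and 0 were higher in edgeR. The number lower was 3 in DESeq2 and 2 in glmTreat. NANOG had 8 and 11 counts in overexpressing replicates 1 and 3 and 5 and 9 counts in control replicates 6 and 8, and PRDM14 had 0 in every library. The lower genes were the naive-state factor ESRRB, KLF5, LIN28A and CDH1, which encodes E-cadherin. LIN28A, which the study links to the primed state, had a log2 ratio of -1.34 (SE 0.17). ESRRB had a log2 ratio of -4.19 and CDH1 of -2.25 (-3.22 without overexpressing replicate 3 and -1.67 without replicate 1). KLF5 had a log2 ratio of -1.93. It was not called in DESeq2 or in glmTreat, nor without either overexpressing library or without control replicate 8.

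Of 12 listed trophoblast markers 8 were tested, and 5 were lower, 1 was higher, and the median log2 ratio was -2.75. The higher gene was TFAP2A (log2 ratio 3.72), while GATA2 and GATA3 were not called, with log2 ratios of -0.05 (SE 0.56) and 0.07 (SE 0.35). The summed level of the list was 319.5 and 1173 CPM in overexpressing replicates 1 and 3 against 15691 and 9625 CPM in control replicates 6 and 8. Most of this sum was KRT8, with 250.1 and 1014 CPM against 12015 and 7489 CPM. KRT8 and KRT18 encode keratins of simple epithelium. KRT18 had a log2 ratio of -5.77, which was -7.66 without overexpressing replicate 3 and -4.97 without replicate 1. The listed genes CDX2 and HAND1 had 0 counts in every library, but the lower genes were not keratins alone. In the same order of libraries, TEAD4 had 8.94 and 15.8 CPM against 88.5 and 69.7 CPM, a log2 ratio of -2.68. TFAP2C had 2.37 and 3.17 CPM against 20.5 and 18.6 CPM, a log2 ratio of -2.82. KRT8 and KRT18, like APOE and APOA1, were higher in overexpressing replicate 3 than in replicate 1, and the part of keratin-expressing cells in the lower levels of APOE and APOA1 was not tested.

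Macrophages are a known source of APOE. Their markers summed to 44.2 and 35.0 CPM in overexpressing replicates 1 and 3 and to 182 and 129 CPM in control replicates 6 and 8, most of it AIF1, which was the 1 lower gene of 5 tested among 9 listed and had a log2 ratio of -2.24. The defining macrophage genes CD163 and LYZ had 0 counts in every library, PTPRC had 1 count in control replicate 8 alone, and CSF1R had between 20 and 28 counts in a library. Of the other listed genes, CD68 and SPI1 were above the floor in every library, ITGAM was above it in all but overexpressing replicate 3, and none of the 3 was called, with 148 and 135 counts of CD68, 36 and 31 of SPI1 and 19 and 3 of ITGAM in overexpressing replicates 1 and 3 against 126 and 100, 37 and 27, and 17 and 11 in control replicates 6 and 8.

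Fibroblast markers summed to 324 and 252 CPM in overexpressing replicates 1 and 3 and to 348 and 288 CPM in control replicates 6 and 8, with FBN1 the most abundant other than in overexpressing replicate 1, where COL1A2 had 139 CPM and FBN1 123 CPM. Of 7 tested genes among 13 listed, 3 were lower and 2 were higher. PDGFRB had a log2 ratio of -5.49 (-6.32 without overexpressing replicate 3 and -4.79 without control replicate 6) and COL1A1 of -1.97, while PRRX1 had 1.62 and COL1A2 1.08, the last not called without overexpressing replicate 1 (0.64) or control replicate 8 (0.78).

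Endothelial markers, looked at because endothelium expresses SOX17, summed to 3.58 and 6.97 CPM in overexpressing replicates 1 and 3 and to 59.6 and 65.9 CPM in control replicates 6 and 8, with TEK the most abundant. Of 9 listed genes 4 were tested, 2 were lower (1 without control replicate 6, and 3 in limma-voom or with no filter on low counts) and 0 were higher in edgeR. TEK had a log2 ratio of -3.91, which was -4.72 without overexpressing replicate 3, while ERG had 0 counts and CDH5 had 1 count in control replicate 8 alone.

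Heart markers, looked at because the heart expresses GATA4 and GATA6, summed to 16.3 and 14.4 CPM in overexpressing replicates 1 and 3 and to 44.2 and 20.8 CPM in control replicates 6 and 8, and their most abundant gene was ACTC1 in both controls but MEF2C in both overexpressing libraries (9.38 and 5.29 CPM, with ACTC1 at 1.01 and 2.84 CPM). Of 10 listed genes 5 were tested, with 1 higher and 2 lower (1 lower in DESeq2, in glmTreat, with a filter of 1 CPM, and without overexpressing replicate 3 or control replicate 6, and 3 lower without control replicate 8). With no filter on low counts 2 were higher and 3 lower. NKX2-5 had 70 and 42 counts in overexpressing replicates 1 and 3, but 0 counts in both controls, and was thus at least 13.3-fold higher against 3 counts per library. ACTC1 had a log2 ratio of -3.40, which was -4.31 without overexpressing replicate 3, -2.81 without replicate 1 and -2.63 without control replicate 6.

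Intestinal markers, looked at because intestine expresses HNF4A and APOA1, summed to 27.2 and 18.7 CPM in overexpressing replicates 1 and 3 and to 1.47 and 1.94 CPM in control replicates 6 and 8. Nearly all of the sum in the overexpressing libraries was LGR5, with 27.2 and 18.6 CPM. Of 8 listed genes, LGR5 alone was tested, and it was higher with a log2 ratio of 4.27, so a rise of intestinal markers as a class is not shown. VIL1 had 1 and 2 counts in overexpressing replicates 1 and 3 and 3 and 10 counts in control replicates 6 and 8. The intestinal genes CDX2 and FABP2 had 0 counts in every library.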

How the data were processed

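RNA-seq libraries of 2 IRF-1 overexpressing and 2 control piPSC samples were compared. The table the authors deposited gives raw read counts for each Ensembl gene, with exon lengths. Its methods name trim_galore for read filtering, HISAT2 (2.0.4 in the submitters' processing notes) for mapping to Sscrofa11.1, and both htseq-count and featureCounts 1.6.4 for counting. The layout of the table is that of featureCounts. The annotation release, strand setting and handling of multi-mapped reads are not given in the sources used here. Gene names matched 14692 of 24358 identifiers. ChIP-Seq libraries were not analysed here, and 0 count columns were left unused.

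Counts were tested with edgeR 4.0.16 (R 4.3.3): filterByExpr by group, TMM factors (0.982 to 1.02), quasi-likelihood test with Benjamini-Hochberg adjustment over 13250 genes, common dispersion 0.0313. Standard errors are the log2 fold change divided by the square root of F. For 2 against 2 libraries the smallest two-sided p of an exact permutation test is 0.333, so adjusted p-values rest on spread shared across genes. Counts of replicates differed by more than counting noise, with a chi-square over its degrees of freedom of 17.9 in overexpressing and 31.3 in control cells. The test was checked on counts simulated with the common dispersion for every gene. This check does not cover genes whose replicates vary more. Python 3.11.15, pandas 2.3.3, scipy 1.17.1 and matplotlib 3.10.9 made the tables and figures.

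The members and lists were chosen with earlier results of these data known. Named are the members, IRF1, in each list up to 3 called genes with the highest and up to 3 with the lowest log2 fold change at a mean of at least 1 CPM, markers named as absent, and the 2 genes most alike to each tested member. Other genes were chosen after their values were seen. A few genes that this rule takes are not reported. A group is at the floor when each library has at most 3 counts. Fold changes against the floor are lower bounds, and for 1 to 3 counts the ratio with its exact (Clopper-Pearson based) interval is given. Alternatives were other scalings, filters and thresholds, DESeq2 1.42.0, limma-voom (limma 3.58.1), glmTreat, each library left out, and counts without 37 mitochondrial genes or the 10 highest genes.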

Additional observations from a re-analysis of the deposited data

How the results depend on the processing

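The calls of APOE, APOA1 and CITED1 held under each of the 15 alternative settings, and GATA6 was called in none. The setting with no fold change minimum uses the main fit, so no call could be lost there. glmTreat keeps the log2 ratios of the main fit and changes the test only. Over these settings the log2 ratio ranged from -3.15 to -2.11 for APOE and from 1.82 to 2.21 for CITED1. APOA1 fell by 3.40 at most and fell by 2.00 at least. The CITED1 adjusted p rose to 0.046 without overexpressing replicate 1. GATA6 ranged from -0.22 to 0.40, and its negative value came without overexpressing replicate 3. The cause was not tested. With each library left out in turn, IRF1 ranged from 6.30 to 6.62.

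With glmTreat, which tests against the limit itself, 611 genes were higher and 603 lower, and of the endoderm lists 5 were higher and 15 lower. With no fold change minimum 1842 genes were higher and 2054 lower. Leaving out single libraries gave 733 to 1124 higher and 787 to 1500 lower genes, and 7 to 11 higher and 18 to 25 lower list genes. The lone library of a group is then assumed to vary like the other group. For the other genes taken by the naming rule, the settings gave the same call 569 times and lost it 31 times, with none reversed. Genes named outside that rule, such as PROX1 and TEAD4, are not in these numbers. PROX1 also lost its call in glmTreat. With a floor of 1 count, 2 instead of 3 members were at the floor in the overexpressing cells. No paired analysis was possible because the groups compared share no replicate number. Depth limits GATA4, HNF4A, FOXA2 and the SOX17 locus, where only large differences could be seen.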
